A study of Mus musculus with 7 samples.

Results

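The genes described here are the 4 connexin genes of the arterial wall, Gja1 (Cx43), Gja4 (Cx37), Gja5 (Cx40) and Gjc1 (Cx45), with the pannexin gene Panx1. They were chosen by name, and a row was accepted only where its probe annotation gave that gene as the sole symbol. Each of the 5 genes had 1 such row among the 14996 rows with a single symbol and the 23332 rows of the deposited table. Gene expression had been measured in mesenteric artery, the vessel bed that feeds the intestine, on Affymetrix mouse exon 1.0 ST arrays. The P467L group held 3 male mice with human PPARγ carrying the dominant-negative P467L mutation in vascular smooth muscle, under the smooth muscle myosin heavy chain promoter. The controls were 4 non-transgenic littermates, and each array held the RNA of 1 mouse. The labels state neither the ages of the mice nor their strain background. Values are log2 intensities, so a difference of 1 is a doubling of the signal.

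Connexins assemble into channels that dock between neighbouring cells and let ions and small messengers pass, which spreads changes of membrane potential along and across the vessel wall. In rodent arteries Cx37 and Cx40 are best known from endothelium, Cx45 from smooth muscle, and Cx43 from either layer according to the vessel. The junctions that link endothelium with muscle, called myoendothelial, carry endothelium-dependent hyperpolarization to the muscle. Pannexin 1 is a related membrane channel that releases ATP rather than joining cells. Since the promoter is that of a smooth muscle gene, the transgene was aimed at the muscle cells and not at the endothelium, and the whole vessel wall was assayed. In such samples fewer cells of a type and less RNA per cell cannot be told apart.

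The arrays had medians between 6.29 and 6.34 and upper quartiles between 7.10 and 7.29. On the first principal component, whose sign is arbitrary and which held 33.7% of the variance, P467L replicate 3 lay at 42.9 and P467L replicate 2 at -31.2, the ends of the range. The vessel wall was present in all 7 preparations by its markers. The endothelial adhesion gene Pecam1 lay between 10.39 and 10.83, and the smooth muscle actin gene Acta2 between 11.94 and 12.08, above the upper quartile of every array. The row of Pparg, designed on the mouse gene, was at 6.78 ± 0.30 (SD, n = 4) in control and 6.66 ± 0.16 (SD, n = 3) in P467L artery and differed by -0.12 (95% interval -0.55 to 0.32; limma, adjusted p = 1). As a row of the mouse gene it does not check the genotype labels. Whether its probes also pick up the human transcript was not tested.

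Of the 5 genes, 0 passed an adjusted p of 0.05 in limma fitted over all rows, where the share called was 0.00%. At an unadjusted p under 0.05 there were 2, Gjc1 and Gja4, beside 3.10% of all rows. Both were lower in P467L artery, beside 1.56% of all rows called in that direction. Lower means were seen in 4 of the 5 genes, with a median difference of -0.098, beside 50.7% of all rows with lower and 47.7% with higher means and a median of -0.002 over all rows. The groups did not overlap in 1 gene, Gja4, beside 2.57% of all rows. Gja4 was lower, beside 1.28% of all rows lower without overlap, and 0 of the 5 genes were higher without overlap, beside 1.29% of all rows. An exact permutation test of 3 against 4 mice cannot give a two-sided p under 0.0571, so a single gene could not pass 0.05 by it. Without P467L replicate 3, the array that stood apart, 2 of the 5 genes had lower means, again Gja4 and Gjc1.

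**Figure D1:**
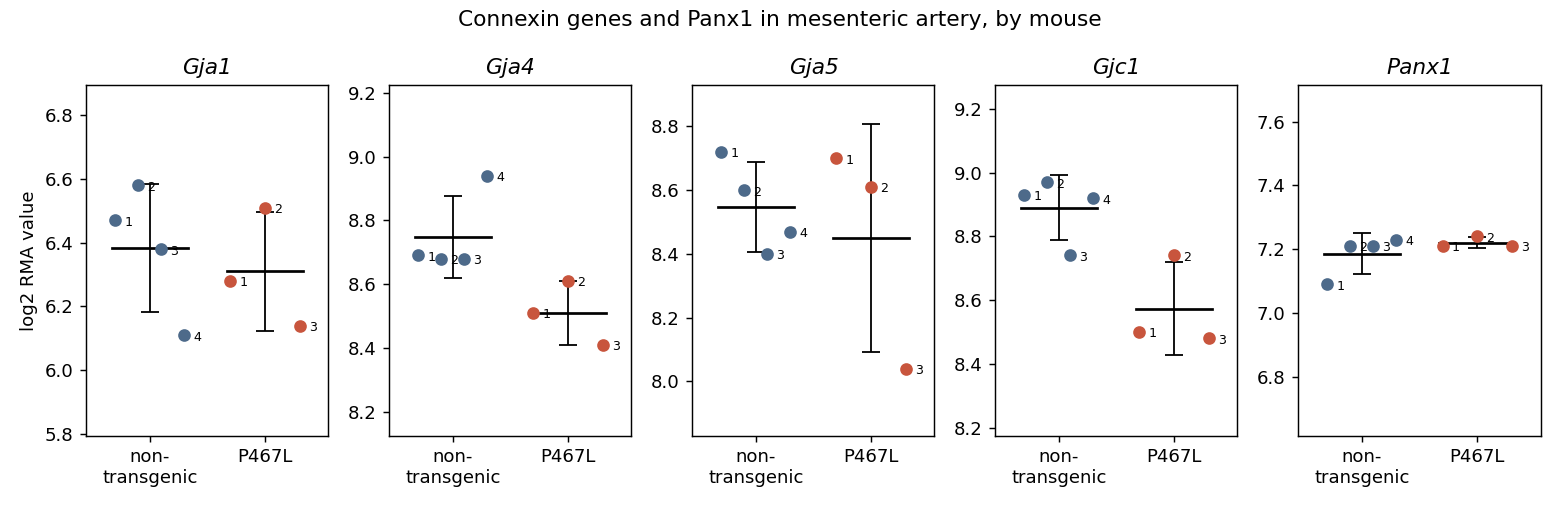
The log2 RMA value (vertical axis, the same span of 1.1 units in each panel) of each gene in the 4 non-transgenic and 3 P467L mice, each point labelled with its replicate number; lines are group means and bars the SD. The 3 P467L values of Gja4 lie below all 4 controls, those of Gjc1 reach up to the lowest control at 8.74, and the values of Gja1, Gja5 and Panx1 overlap.

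Gja4 and Gja5, the connexins best known from endothelium, did not show the same pattern over the mice. Gja4 was bright on all 7 arrays, at 8.69, 8.68, 8.68 and 8.94 in non-transgenic replicates 1 to 4 and at 8.51, 8.61 and 8.41 in P467L replicates 1 to 3. All 3 P467L mice thus lay below every control, by a gap that was small beside the distance of non-transgenic replicate 4 from the other controls. The means were 8.75 ± 0.13 (SD, n = 4) and 8.51 ± 0.10 (SD, n = 3), a 1.18-fold lower signal in P467L artery. The difference of -0.24 did not pass over all rows (limma, adjusted p = 1; 95% interval -0.45 to -0.03). Its exact two-sided permutation p was 0.0571, the smallest possible, and 7.71% of all rows were lower by at least as much. The interval included 0 without P467L replicate 1 (-0.51 to 0.04) or P467L replicate 3 (-0.43 to 0.06). Without non-transgenic replicate 4 the difference was -0.17.

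Gja5 was at 8.72, 8.60, 8.40 and 8.47 in the 4 non-transgenic mice and at 8.70, 8.61 and 8.04 in the 3 P467L mice. P467L replicates 1 and 2 lay within the range of the controls, and P467L replicate 3 lay below all other arrays. The means of 8.55 ± 0.14 (SD, n = 4) and 8.45 ± 0.36 (SD, n = 3) differed by -0.10, less than the spread of either group (limma, adjusted p = 1; 95% interval -0.53 to 0.34). The direction rested on P467L replicate 3: without it the difference was 0.11. In the within-array difference of the 2 endothelial connexins, Gja4 minus Gja5, the values ran from -0.03 to 0.47 in controls and from -0.19 to 0.37 in P467L mice. The group means of this quantity differed by -0.14 (95% interval -0.63 to 0.35; exact permutation p = 0.514), so the changes of Gja4 and Gja5 could not be shown to differ.

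The stretches around the annotated transcription starts of these 2 genes are shown because Gja4 was the gene whose groups did not overlap and Gja5 its closest counterpart by cell type. Each is the RefSeq sequence of build GRCm38.p6 on the gene's own strand, from 250 bases before to 50 after the start, at chr4:127313990-127314289 (minus strand) for Gja4 and at chr3:97032152-97032451 (plus strand) for Gja5. Capitals mark the GC box GGGCGG, searched on both strands.
Gja4: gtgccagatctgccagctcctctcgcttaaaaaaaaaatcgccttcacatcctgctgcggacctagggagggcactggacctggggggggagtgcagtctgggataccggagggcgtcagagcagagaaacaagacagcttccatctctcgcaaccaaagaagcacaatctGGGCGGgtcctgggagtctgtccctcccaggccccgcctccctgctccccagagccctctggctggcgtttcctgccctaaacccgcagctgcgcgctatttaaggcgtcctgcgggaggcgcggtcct
Gja5: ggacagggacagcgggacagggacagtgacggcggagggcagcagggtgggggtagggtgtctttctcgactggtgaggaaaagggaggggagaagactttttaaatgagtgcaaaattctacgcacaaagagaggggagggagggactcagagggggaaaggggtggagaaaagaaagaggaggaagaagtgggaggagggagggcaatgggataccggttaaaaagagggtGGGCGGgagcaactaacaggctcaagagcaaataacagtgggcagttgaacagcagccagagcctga
The box starts at -79 in Gja4 and at -17 in Gja5, counted from the transcription start, and 35.9% of the 32544 promoters in the RefSeq table hold it. PPARγ with its RXR partner is known to bind a DR1 element, 2 copies of the hexamer AGGTCA with any 1 base between them. The hexamer was found on neither strand in the windows of Gja1, Gja4, Gja5 and Panx1, and 16.2% of promoters hold it. The window of Gjc1 was not searched, since the sequence table used held no entry for it. The DR1 element, which contains the hexamer, was in 0.0399% of promoters and in none of these 4 windows. A window of this length does not cover distant sites, and a match or its absence is a description of these letters.

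Gjc1, the smooth muscle connexin, had the largest difference of the 5 genes. It was at 8.93, 8.97, 8.74 and 8.92 in the non-transgenic mice and at 8.50, 8.74 and 8.48 in the P467L mice. P467L replicates 1 and 3 lay below every control, and P467L replicate 2 was level with non-transgenic replicate 3 at 8.74. The means were 8.89 ± 0.10 (SD, n = 4) and 8.57 ± 0.14 (SD, n = 3), a 1.25-fold lower signal in P467L artery. The difference of -0.32 exceeded the SD of either group (95% interval -0.53 to -0.10) and did not pass over all rows (limma, adjusted p = 1; exact permutation p = 0.114). As many as 4.97% of all rows were lower by at least this much. The 95% interval stayed below 0 with any single array left out, with differences from -0.40 to -0.27.

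The values of Gjc1 and Gja4 over the mice were also set beside each other and beside all named genes. Likeness was measured as the root mean square distance between values centred on each gene's mean over the 7 arrays. That distance was 0.110 for the pair, beside 0.187 and 0.154 for the excursions of Gjc1 and Gja4 about their own means. The table named 14860 distinct genes. By this measure Gja4 was the 80th nearest of them to Gjc1, and Gjc1 the 131st nearest to Gja4. The values compared include the genotype difference, and both genes were lower in P467L artery, so these ranks partly restate that. Other pairs were far apart: Gja5 ranked 10467 from Gja4 and 8064 from Gjc1, and Gja1 ranked 11009 and 3656. The genes nearest to Gjc1 were Slit2 (0.0612), a guidance cue for axons and vessels, Defb10 (0.0654), a defensin gene with dim signal, and Pdzrn3 (0.0678), a ubiquitin ligase gene. Those nearest to Gja4 were the dim olfactory receptor genes Olfr69 (0.0431) and Olfr1264 (0.0485) and the gene Atxn7l1 (0.0575). Slit2, at 7.61 in control and 7.34 in P467L artery, differed by -0.26, and Atxn7l1, at 8.36 and 8.09, by -0.27 (limma, adjusted p = 1 for each). Differences close to those of Gjc1 and Gja4 largely follow from choosing these genes by likeness.

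On mouse chromosome 11 the protein-coding gene next to Gjc1 in the RefSeq order is Higd1b, whose product sits in mitochondria and which is widely used to mark pericytes. Higd1b was at 7.65, 7.55, 7.40 and 7.36 in controls and at 6.56, 6.93 and 6.47 in P467L mice. All 3 P467L mice were below every control, with a difference of -0.84 (95% interval -1.16 to -0.51; limma, adjusted p = 1). The 3 protein-coding neighbours on each side of the 5 genes came to 30, of which 22 were measured. Apart from Higd1b, the other 21 differed by -0.09 to 0.28. Gjb5, an epithelial connexin gene among these neighbours, was at 6.02 ± 0.18 (SD, n = 4) in control and 6.21 ± 0.19 (SD, n = 3) in P467L artery and differed by 0.20 (limma, adjusted p = 1), or by 0.092 without P467L replicate 1 and 0.120 without non-transgenic replicate 4.

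Gja1, whose product Cx43 is the most widespread connexin, had a row close to the array medians, above the median on 4 arrays and above the upper quartile on 0. It was at 6.47, 6.58, 6.38 and 6.11 in non-transgenic and at 6.28, 6.51 and 6.14 in P467L mice. The lowest and the highest array were both controls, and the P467L mice lay between them. The means of 6.38 ± 0.20 (SD, n = 4) and 6.31 ± 0.19 (SD, n = 3) differed by -0.075, less than the SD of either group (95% interval -0.41 to 0.26; limma, adjusted p = 1). Without P467L replicate 3 the difference was 0.010. The nearest genes by the same distance were Prkcd (0.0582), a protein kinase C gene that had been listed as a regulator of connexins, Mtmr4 (0.0600), a lipid phosphatase gene, and Itga9 (0.0602), an integrin subunit gene.
For Gja5 the nearest were Cggbp1 (0.0430), Tmem147 (0.0443) and Crip2 (0.0469). All of these lay low in P467L replicate 3 as Gja5 did, and their directions also turned without it. Since they were chosen by likeness to Gja5, both features largely follow from the choice.

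Panx1 was nearly flat. It was at 7.09, 7.21, 7.21 and 7.23 in non-transgenic and at 7.21, 7.24 and 7.21 in P467L mice. The same value, 7.21, was returned on 4 of the 7 arrays, so its spread may be a low estimate. The means of 7.19 ± 0.064 (SD, n = 4) and 7.22 ± 0.017 (SD, n = 3) differed by 0.035 (95% interval -0.07 to 0.14; limma, adjusted p = 1). Non-transgenic replicate 1 was the low array, and without it the difference was 0.003. The rows nearest to Panx1, those of Gpr137, Slc35f4 and Stil, had a low non-transgenic replicate 1 and 0 spread among P467L mice. They were chosen by likeness to Panx1, and each was also tied on 4 or more arrays.

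The rest of the family was measured by dim rows. Of 18 further connexin and pannexin genes 11 were measured: Gja6, Gja10, Gjb1, Gjb2, Gjb5, Gjb6, Gjc3, Gjd3, Gjd4, Panx2 and Panx3. In all 11 the row stayed below the upper quartile on every array, in 7 below the median on every array, and in Gja10 and Gjb2 below the lower quartile on every array. By contrast Gja4, Gja5 and Gjc1 lay above the upper quartile on all 7 arrays, and Panx1 on 4. Probes differ in affinity, so these positions say how dim a row is and not how many molecules each gene has. Of the 11 genes 8 had higher and 3 lower means in P467L artery, with differences from -0.12 to 0.31 and a median of 0.088, and 0 had an unadjusted p under 0.05 or groups without overlap, beside 3.10% and 2.57% of all rows. Panx2, a pannexin known mainly from brain, was at 6.20 ± 0.16 (SD, n = 4) in control and 6.41 ± 0.092 (SD, n = 3) in P467L artery, a difference of 0.21 (95% interval -0.03 to 0.44; limma, adjusted p = 1), or 0.133 without non-transgenic replicate 3. Panx3, a pannexin of skin and cartilage, differed by 0.16 (95% interval -0.06 to 0.37) from a dim level of 5.13, or by 0.093 without that replicate and 0.102 without P467L replicate 1.

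**Figure D2:**
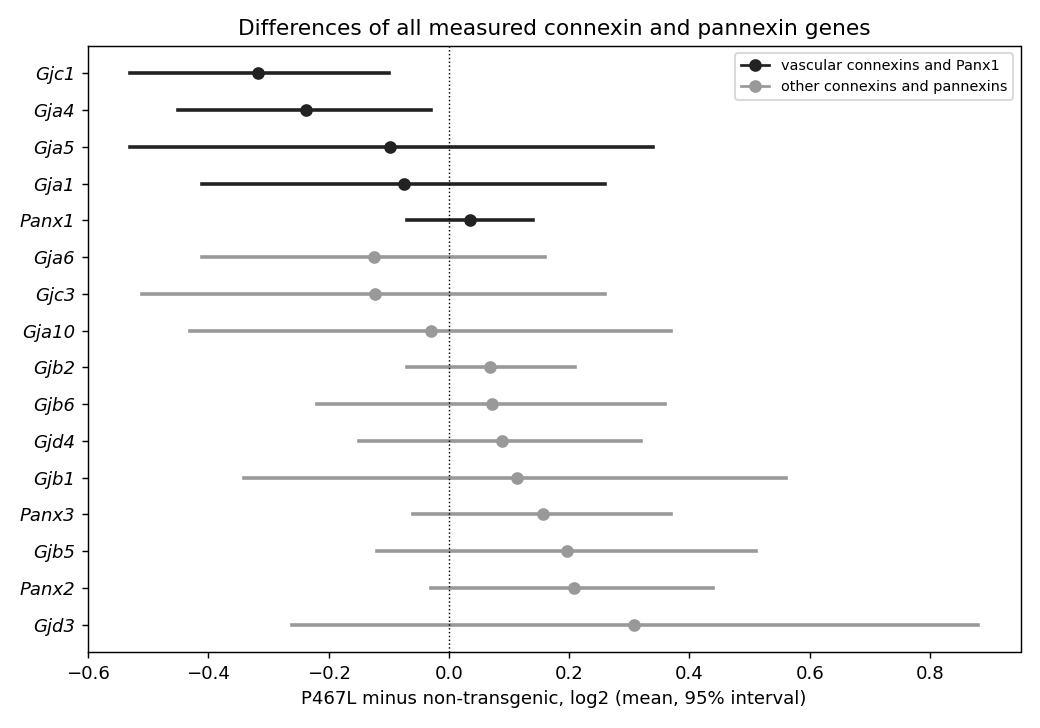
The difference between P467L and non-transgenic artery (horizontal axis, log2) for the 16 measured connexin and pannexin genes, with the 95% interval of the limma fit. The intervals of Gjc1 and Gja4 lie below 0, and those of the other genes include 0.

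Because the vessel is a mixture, the markers of its cell types are given beside the connexin values. The mean level of 19 endothelial markers was 7.54 to 7.83 in controls and 7.50 to 7.81 in P467L mice, with 10 markers higher and 9 lower and a median difference of 0.003. The endothelial cadherin gene Cdh5 was at 8.58 in control and 8.73 in P467L artery, a difference of 0.15 (95% interval -0.33 to 0.64), and Pecam1 differed by 0.01, with SDs of 0.13 and 0.23. The 12 smooth muscle markers all had lower means, with a median difference of -0.165 and levels of 9.84 to 10.07 against 9.70 to 9.84. Their differences ran from -0.40 to -0.03, and in 3 of the 12 all P467L mice lay below the controls, beside 1.28% of all rows. The contractile genes Acta2 and Myh11, named because they came first in the list, had some of the smaller differences, -0.03 and -0.09. Of 8 pericyte markers 7 had lower means, with levels of 7.50 to 7.60 in controls and 7.18 to 7.27 in P467L mice, without overlap, and a median difference of -0.174. Rgs5, a mural cell regulator of G protein signalling, differed by -1.06 in the brighter of its 2 rows. Higd1b differed by -0.84, and the other 6 by -0.28 to 0.00. The part of smooth muscle markers in the lower means of Gjc1 and Gja4 was not tested beyond the values that follow. That of pericyte markers was not tested, and no gene was set against them.

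The other lists moved as follows. Of 9 arterial endothelial markers 6 had higher means, at 7.51 to 7.60 in controls and 7.54 to 7.62 in P467L mice. Fibroblast markers (8.24 to 8.49 against 8.38 to 8.57) had higher means in 10 of 11, and macrophage markers (6.61 to 6.87 against 6.63 to 7.16) in 12 of 12. Adipocyte markers had lower means in 8 of 9, and their level was 6.79 to 7.63 in controls and 6.78 to 7.0 in P467L mice. Schwann and nerve markers (6.28 to 6.39 against 6.27 to 6.40), lymphatic markers (6.45 to 6.67 against 6.51 to 6.68) and mesothelial markers (5.99 to 6.11 against 6.0 to 6.12) overlapped. In a log2 table with no detection calls none of these markers can be called absent.

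Each gene was then set against the markers of 1 layer on the same array, as the log2 value of the gene minus the mean of the markers. For Gja1 and Panx1 the smooth muscle markers were a choice, since neither gene was assigned to a single layer. These 6 comparisons, with Gja4 minus Gja5 among them, were tested by exact two-sided permutation, and after Benjamini-Hochberg adjustment over the 6 the smallest p was 0.343. Gja4 minus endothelial markers was 0.86, 1.07, 1.05 and 1.40 in controls and 0.70, 0.88 and 0.91 in P467L mice, so that non-transgenic replicate 1 lay among the P467L mice. The difference of -0.26 was close to that of Gja4 alone, with a 95% interval from -0.63 to 0.11 (exact permutation p = 0.171). The endothelial marker mean itself differed by 0.027, so subtracting it could change the difference only a little. Gja4 was not set against the smooth muscle markers in this way, although their mean differed by -0.178. With the median of the markers the difference was -0.28 and all P467L mice lay below the controls (exact permutation p = 0.0571, the smallest possible), and without non-transgenic replicate 4 it was -0.16 with the mean. Gja5 minus endothelial markers differed by -0.12 (exact permutation p = 0.400), with 0.54 in P467L replicate 3 and 0.77 to 0.99 in all other mice.

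Against the muscle markers the members differed in sign. Gjc1 minus smooth muscle markers was -0.99, -1.10, -1.22 and -0.92 in controls and -1.28, -1.10 and -1.22 in P467L mice, overlapping, with a difference of -0.14 (95% interval -0.37 to 0.09; exact permutation p = 0.286). Gjc1 alone differed by -0.32, so the within-array difference was the smaller. Gja1 minus smooth muscle markers differed by 0.10 (95% interval -0.14 to 0.34; exact permutation p = 0.400). Panx1 minus smooth muscle markers was -2.83, -2.86, -2.75 and -2.61 in controls and -2.57, -2.60 and -2.49 in P467L mice. All 3 P467L mice were above every control, with a difference of 0.21 (95% interval 0.03 to 0.40; exact permutation p = 0.0571, the smallest possible; adjusted 0.343). Panx1 alone differed by 0.035 with overlapping groups, and the mean of the subtracted markers by -0.178. With the median of the markers in place of their mean the difference was 0.15 and the separation was lost (exact permutation p = 0.171).

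**Figure D3:**
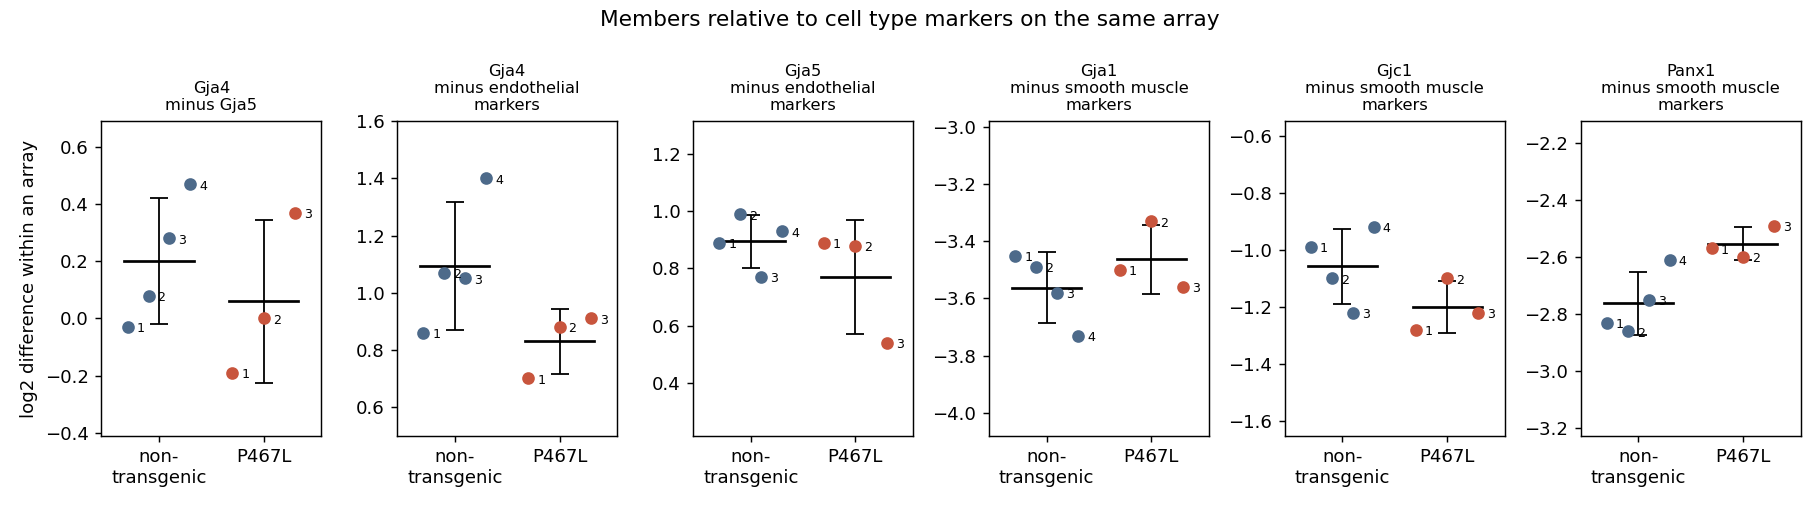
Within-array log2 differences (vertical axis, a span of 1.1 units in each panel) between a gene and Gja5 or the mean of 19 endothelial or 12 smooth muscle markers, by mouse with its replicate number; lines are group means and bars the SD. The P467L mice lie above all controls for Panx1 minus smooth muscle markers, and the groups overlap in the other 5 panels.

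Genes that act with gap junctions were given by list. Of 20 listed partners and regulators of connexins 15 were measured, 6 with higher and 9 with lower means and a median of -0.025, and 0 had an unadjusted p under 0.05, beside 3.10% of all rows. Ccn3, a secreted matrix-associated protein known to bind Cx43, was at 8.06 ± 0.21 (SD, n = 4) in control and 7.60 ± 0.37 (SD, n = 3) in P467L artery, a difference of -0.46 (95% interval -0.96 to 0.03; limma, adjusted p = 1). P467L replicate 3 was lowest at 7.17, all other mice had 7.77 to 8.30, and without that array the difference was -0.25. Protein kinase C isoforms phosphorylate Cx43, and Prkcd differed by -0.18, Prkca by 0.10 and Prkce by 0.03, each with an interval that included 0.

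Of 18 genes of myoendothelial signalling 13 were measured, 3 with higher, 8 with lower and 2 with equal means and a median of -0.006. At an unadjusted p under 0.05 there was 1, Slc8a1, beside 3.10% of all rows. In 2 of them the P467L mice lay below all controls, beside 1.28% of all rows. Slc8a1, which exchanges sodium for calcium at the cell membrane, differed by -0.34 in the brighter of its 2 rows (95% interval -0.60 to -0.08; limma, adjusted p = 1). With the smooth muscle marker mean as a covariate it differed by -0.19 (95% interval -0.62 to 0.23). That marker mean was itself 9.84 to 10.07 in controls and 9.70 to 9.84 in P467L mice. Its share and that of the genotype cannot be told apart on 7 arrays. Gucy1a1, a subunit of the nitric oxide receptor that was named after its values were seen, differed by -0.15 (95% interval -0.34 to 0.03; limma, adjusted p = 1). P467L replicate 1 was at 8.46 and replicates 2 and 3 at 8.69 and 8.76, just under the controls, and without replicate 1 the difference was -0.065. Kcnma1, the large-conductance potassium channel of arterial muscle, differed by -0.26, Cyb5r3, a reductase found at myoendothelial junctions, by 0.18 and Trpv4, an endothelial calcium channel, by 0.07, with intervals that included 0. Without P467L replicate 1 the differences of Cyb5r3 and Trpv4 were 0.077 and -0.003.

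A list of 19 genes was drawn up for purinergic signalling downstream of the ATP released by pannexin channels. It also held the adrenergic receptor gene Adra1b, which had a higher mean (0.04). Of the 19 genes 12 were measured, 6 with higher and 5 with lower means and a median of 0.004. Among them 1 had an unadjusted p under 0.05 in limma, beside 3.10% of all rows. That gene was P2rx1, the main ATP-gated ion channel of arterial smooth muscle. It was at 9.16, 9.15, 9.16 and 8.82 in controls and at 8.60, 8.61 and 8.36 in P467L mice, without overlap. Its difference of -0.55 (95% interval -0.83 to -0.27; limma, adjusted p = 1) stood beside the 0.035 of Panx1. With the smooth muscle marker mean as a covariate P2rx1 differed by -0.28 (95% interval -0.60 to 0.03). That mean nearly separated the groups, so its share cannot be told apart from that of the genotype. P2ry6, a receptor for UDP, differed by -0.10, and P2rx7 and P2ry1, receptors for ATP and ADP, by 0.09 and 0.08, with intervals that included 0.

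**Figure D4:**
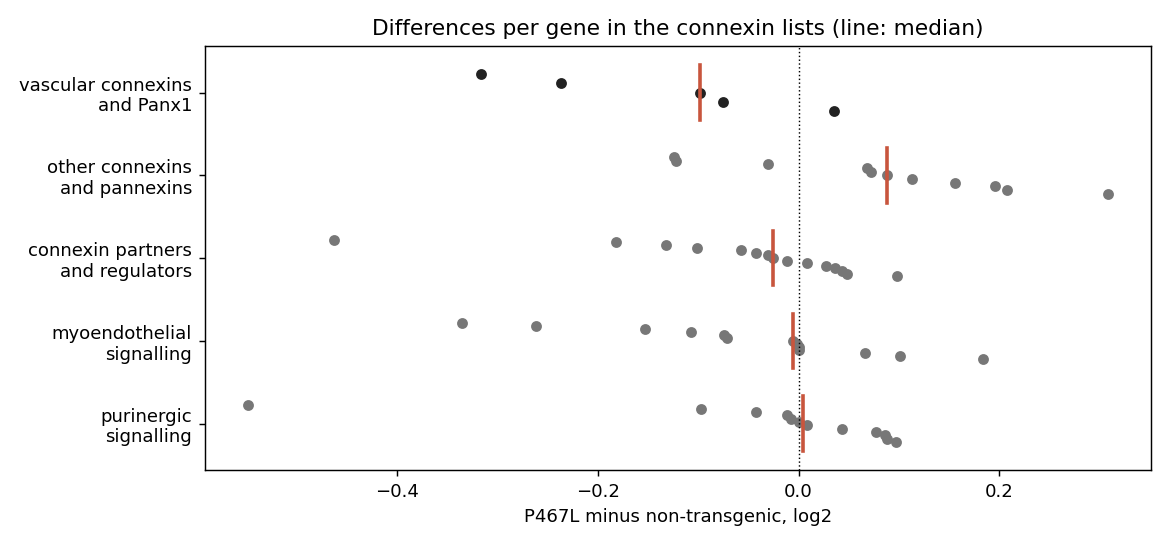
Each point is the difference between P467L and non-transgenic artery (horizontal axis, log2) of 1 gene, for the vascular connexins with Panx1, the other connexins and pannexins, connexin partners, myoendothelial signalling genes and purinergic genes; the coloured lines are list medians. Medians run from -0.098 in the first list to 0.088 in the second, and P2rx1 at -0.55 is the point farthest to the left.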

How the data were processed

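Per the labels' protocols, about 50 ng of total RNA from 1 mouse was amplified in a 2-step procedure, labelled with biotin and hybridised to 1 array. The deposited log2 values were made by the authors with Affymetrix Power Tools and RMA on mm9, per the submitters' processing notes; versions and settings were not stated there. Rows were named from the platform annotation, taking the brightest row of a gene. The table held 0 columns outside the 7 arrays.

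The unfiltered table of 23332 rows was fitted by genotype alone in limma 3.58.1 (R 4.3.3; lmFit, then eBayes), and p-values were adjusted by Benjamini-Hochberg over the whole table. Differences had a median standard error of 0.117. Exact permutation tests used the 35 splits of the arrays, doubling the smaller tail. The fit was tested on simulated data, with rows called at an adjusted p under 0.05. It recovered 34.3% of rows given a difference of 0.5, 68.7% at 1 and 81.8% at 2. Another 9 rows given no difference were called. The differences of the members were all smaller than 0.5. No detection calls were used. Precision is limited by the small number of arrays.

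The members, the 14 further gene lists and the tests were chosen with earlier results of these data known. Named genes are the members, Pparg and Myh11, the 3 other family members of smallest p, the 2 of smallest p per direction in each pathway list, the 3 nearest genes of each member, and the first 2 endothelial, smooth muscle and pericyte markers. The other marker lists are given by their mean level, a departure from the rule, which named 2 of each. Gucy1a1 and the neighbours of members were named after their values were seen.

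Alternatives were a further quantile normalization, median centring, trended robust moderation, removal of the dimmest 25% or 50% of rows, weights per array, a block for the replicate number, rows with 1 symbol only, endothelial or smooth muscle markers as a covariate, the median of the markers, and each array left out. Leaving out rows with 1 value on 4 or more arrays was chosen after seeing the data. Taking the mean over several rows of a member was not run, since each had 1 row.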

Additional observations from a re-analysis of the deposited data

Results flagged for a closer look

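In 4 of 41 groups of 4 control mice that were checked, a single array lay apart from the other 3 by more than Dixon's 95% critical value for the gap over the range. Chance flags about 1 in 20 groups. Another 7 named genes with the same value on 4 or more arrays were not checked, Gpr137, Slc35f4 and Stil among them, whereas Panx1, also tied on 4 arrays, was. Gja4 was at 8.94 in non-transgenic replicate 4 and at 8.68 to 8.69 in the other controls (gap over range 0.962). Panx1 was at 7.09 in non-transgenic replicate 1 and at 7.21 to 7.23 in the other controls (0.857). Kcnma1 was at 7.91 in non-transgenic replicate 2 (0.848), and P2rx1 at 8.82 in non-transgenic replicate 4 (0.971). No array supplied all of these values.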

How the results depend on the processing

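Over 18 alternatives the count of rows past an adjusted p of 0.05 in limma stayed at 0, beside 724 at an unadjusted p under 0.05 in the fit reported, and the smallest adjusted p over all rows ran from 0.166 to 1. Gja4 (-0.31 to -0.17) and Gjc1 (-0.40 to -0.22) stayed lower in all 18, and Panx1 (0.003 to 0.050) stayed higher in the 17 that kept its row. The 95% interval of Gja4 included 0 without P467L replicate 1 or 3, after a further quantile normalization (-0.48 to 0.04), with the replicate block, with either marker covariate (-0.48 to 0.01 and -0.68 to 0.06) and with tied rows left out (-0.48 to 0.01). The smooth muscle marker covariate reversed Gja1 (0.297, 95% interval 0.02 to 0.58), Itga9 (0.389, 0.10 to 0.67), Gja5 (0.156), Prkcd (0.141) and Kcnma1 (0.039). It also reversed Mtmr4 (0.258), Cggbp1 (0.113), Tmem147 (0.139) and Crip2 (0.099). The intervals of Gja1 and Itga9 lay above 0, and those of the other reversed genes and of Gjc1 (-0.58 to 0.15) included 0. This covariate nearly separated the genotypes. Array weights, which gave P467L replicate 1 a weight of 3.54 and replicate 3 of 0.334, reversed Gja5 (0.127), Cggbp1 (0.152), Tmem147 (0.114) and Crip2 (0.038). Endothelial markers as a covariate reversed Pecam1 (-0.023), itself one of them. With 1 array left out, differences ran from -0.175 to 0.010 for Gja1, -0.223 to 0.107 for Gja5, -0.210 to 0.027 for Pparg, -0.003 to 0.112 for Trpv4, -0.155 to 0.065 for Mtmr4, -0.203 to 0.027 for Itga9, -0.185 to 0.115 for Cggbp1, -0.205 to 0.125 for Tmem147, -0.215 to 0.050 for Crip2, -0.007 to 0.037 for Gpr137 and -0.065 to 0.145 for Pecam1. The cause of these reversals was not tested. The 6 within-array differences kept their sign under every alternative run on them, but with 1 array left out Gja4 minus Gja5 ran from -0.295 to -0.015, Gja5 minus endothelial markers from -0.185 to -0.010 and Gja1 minus smooth muscle markers from 0.036 to 0.151. Array weights took Cyb5r3 to 0.362 (0.15 to 0.57), Gjb5 to 0.368 (0.09 to 0.64) and Gucy1a1 to -0.278 (-0.43 to -0.13).

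Same-numbered arrays had correlations of deviations from the group means of 0.116, -0.205 and -0.090, and differently numbered arrays -0.328 to 0.279. So few arrays cannot show whether the replicate numbers pair the mice. With the replicate number as a block, Gja4 differed by -0.173, Gjc1 by -0.307, Gja1 by -0.167, Gja5 by -0.123 and Panx1 by 0.050, Pecam1 reversed (-0.037), and 0 rows passed.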
